A study of Mus musculus with 6 samples.

Results

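The genes for the proteins of the cytosolic ribosome were examined in kidneys of Ptpn6+/mev mice and of wild-type littermates after renal ischemia-reperfusion injury (IRI). A gene was a member when its symbol began with Rpl or Rps and a digit, or when it was Rplp0, Rplp1, Rplp2 or Rpsa. Kinases with symbols in Rps6k and symbols containing -ps were left out. The rule found 86 of the 21367 genes in the table. Of these, 77 encode the canonical proteins of the ribosome, 46 in the large subunit and 31 in the small subunit. The other 9 were Rpl3l, Rpl7l1, Rpl10l, Rpl22l1, Rpl36al, Rpl39l, Rps27l and Rps27rt, which are paralogs or copies of canonical genes, and Rps19bp1, which encodes a binding partner of a ribosomal protein and no subunit. The members lay on 19 chromosomes, with 14 on chromosome 7 and 4 on the X chromosome.

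Each group held 3 mice, 7 weeks old and on a C57BL/6 background, with 1 poly-A library per mouse. The viable motheaten allele, present on 1 chromosome of each Ptpn6+/mev mouse, is a germline splice-site mutation of Ptpn6, and the labels call this genotype a SHP1 knockdown. SHP-1, the product of Ptpn6, is a protein tyrosine phosphatase that dampens receptor signaling. All 6 mice, wild-type controls included, had the right kidney removed, the left pedicle clamped for 34 min and 24 h of reperfusion before the left kidney was taken. Kidneys without injury were not analysed here, so no value below compares injured with uninjured tissue.

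Estimated counts summed to between 10271590 and 12361745 per library. Slc34a1 and Lrp2, transporter and receptor of the proximal tubule, were present in every library, at 176 to 313 FPKM and 22.7 to 41.3 FPKM. FPKM is the number of fragments scaled to transcript length and to the total of the library. Ptpn6 itself was at 11.9, 14.7 and 13.6 FPKM in Ptpn6+/mev replicates 1, 2 and 3, and at 17.5, 10.9 and 15.4 FPKM in the wild-type replicates. The groups overlapped, and since the allele alters splicing, the level of the RNA does not check the labels. Wild-type replicate 2 stood apart. Kap, an androgen-regulated gene of the proximal tubule, was at 10201 FPKM there and at 1520 to 2882 FPKM elsewhere. Markers of endothelium summed to 101 FPKM in that library and to 252 to 283 FPKM in the others, and macrophage markers to 115 FPKM against 177 to 282 FPKM. Where the log2 fold change of a gene named below changed sign or moved by over 1.5 times without this library, its value without it stands beside the printed estimate.

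The ribosome joins amino acids into protein. Its small subunit holds the mRNA and reads the codons, and its large subunit forms the peptide bonds. Every growing cell makes the ribosomal proteins in near equal numbers, and their mRNAs are among the most abundant of most tissues. In mammals these mRNAs open with a 5′ terminal oligopyrimidine (TOP) tract, a C followed by further C or T bases, through which the kinase mTORC1 and the RNA-binding protein LARP1 control their translation. Changes of translation through the TOP tract need not change the amount of the mRNA, which is what was measured here.

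RefSeq start sites (GRCm38.p6) were matched by symbol for 66 of the 86 members. A tract of C and at least 5 further pyrimidines, beginning within 20 bases of a start on the transcribed strand, was found in 43 of these 66 genes, 65.2%. It was found in 36.0% of all 27025 genes with a start window and in 37.3% of the tested genes. On the opposite strand the same tract was found in 21.2% of the members and in 39.7% of all genes. The letters CCGGAAG, on either strand within the 300 bases around the start, were present in 39.4% of members, in 9.93% of all genes, in 19.1% of the tested genes and in 37.7% of the genes for mitochondrial ribosomal proteins. AAGATGG was present in 15.2% of members, 7.28% of all genes, 8.19% of the tested genes and 18.8% of the mitochondrial ribosomal protein genes. TATAAA was present in 10.6% of members, a share below the 15.7% of all genes and above the 9.09% of the tested genes. A match is a description of these letters and not a test of a binding site. Below, 30 bases around the start are shown for members that the results return to, with the pyrimidine tract in capitals and the start site as the base after the first 10.
Rps6, chr4:86857348-86857377, minus strand: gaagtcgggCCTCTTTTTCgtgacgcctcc
Rpl35, chr2:39005112-39005141, minus strand: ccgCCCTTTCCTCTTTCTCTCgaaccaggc
Rpl13a, chr7:45128726-45128755, minus strand: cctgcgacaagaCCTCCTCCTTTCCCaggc
Rplp2, chr7:141447641-141447670, plus strand: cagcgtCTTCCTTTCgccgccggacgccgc
Rps24, chr14:24490668-24490697, plus strand: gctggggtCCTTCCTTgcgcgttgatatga
Rpl39, chrX:37085203-37085232, minus strand: gctccgcctctagcgaCTTCTTCTaatcgc
Rps27, chr3:90213629-90213658, minus strand: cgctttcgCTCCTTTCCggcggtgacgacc
Rps27rt, chr9:114982720-114982749, minus strand: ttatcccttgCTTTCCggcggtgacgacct
Rpl22l1, chr3:28805498-28805527, plus strand: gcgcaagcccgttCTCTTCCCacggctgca
Rps4x, chrX:102189372-102189401, minus strand: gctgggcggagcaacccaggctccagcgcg
Rps3a1, chr3:86142649-86142678, minus strand: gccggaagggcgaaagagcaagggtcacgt
The tract spans the listed start in Rps6, Rpl35, Rplp2, Rps24 and Rps27, and lies a few bases after it in Rpl13a, Rpl22l1 and Rpl39. Rps4x and Rps3a1 have no tract in the bases shown.

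The transcripts of the ribosomal proteins were abundant in every kidney. The median canonical member had a mean of 837 FPKM over the 6 mice. Of the 77 canonical members, 72 had a mean of at least 100 FPKM, 62 of at least 500 FPKM and 21 of at least 1000 FPKM. Rplp1, an acidic protein of the P stalk that recruits elongation factors, had the highest mean, 2183 FPKM. Rpl13a, a large-subunit protein, followed at 2049 FPKM and Rps2, which lines the mRNA entry of the small subunit, at 2023 FPKM. The next by mean level were Rplp0 with 1637 FPKM, Rpl13 with 1546 FPKM, Rpl23a with 1499 FPKM, Rpl26 with 1346 FPKM, Rps15 with 1304 FPKM, Rps14 with 1265 FPKM and Rps6 with 1211 FPKM. Rps18 had the lowest mean, 0.537 FPKM, and Rpl24 had 2.50 FPKM. Rps12 was near 44 FPKM. Ribosomal protein genes have many near-identical processed copies, and 24 members had a fractional count in some library, as arises when a read is shared between genes. Rps18 and Rps12 were among the 24, while Rpl24 had whole counts in every library. The reason for the 3 low values was not tested.

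For 3 members a row with a -ps symbol held many counts. Rps12-ps3 held 96.8% to 97.9% of the counts of Rps12 and Rps12-ps3 together, depending on the library. Rpl27-ps3 held 87.1% to 92.2% of the counts of Rpl27 and Rpl27-ps3 together, and Rpl10-ps3 held 49.9% to 59.2% of those of Rpl10 and Rpl10-ps3. Both rows of each pair held fractional counts, such as 4506.19 for Rpl10 and 6535.81 for Rpl10-ps3 in Ptpn6+/mev replicate 1. Within a pair these counts added to whole numbers in every library, to within rounding, as when reads are divided between the rows. The separate estimates for Rpl10, Rpl27 and Rps12 depend on that division, whose accuracy was not tested. Summed with its copy, Rps12 was at 1590 to 2414 FPKM, within the range of the most abundant members. The other 7 of the 10 rows with -ps symbols did not exceed 2.89 FPKM in any library.

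**Figure D1:**
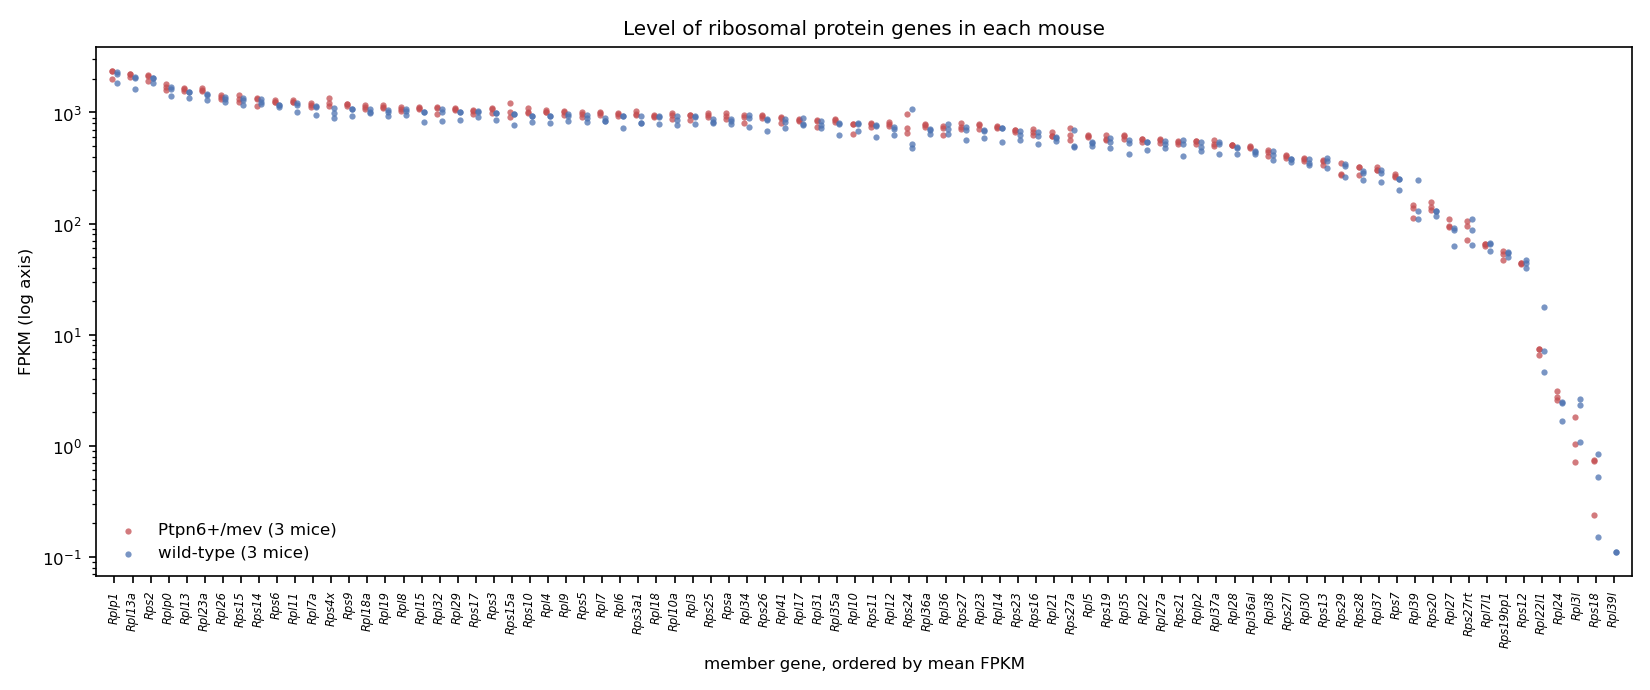
FPKM (log axis) of the members drawn in each mouse, with genes ordered by their mean over 6 mice, Ptpn6+/mev in red and wild-type in blue; values of 0, among them every value of Rpl10l, are not drawn. Means of at least 100 FPKM fill most of the plot, and in Rps24, Rpl39 and Rpl22l1 wild-type replicate 2 lies far above the other 2 wild-type mice.

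Ptpn6+/mev kidneys were compared with wild-type kidneys to ask whether SHP-1 insufficiency went with a change in ribosomal protein mRNA after IRI. No member passed an FDR of 0.05. Of the 86 members, 83 could be tested; Rpl10l had no count, Rpl39l at most 1 count and Rps18 at most 5 counts in a library. Among these 83, 0 were called by the quasi-likelihood test of edgeR, and the share called among all 13036 tested genes was 0.138%. At an unadjusted p under 0.05 there were also 0 members, where 12.2% of all tested genes lay. With the replicate block there was 1 member, Rps4x, beside 9.21% of all genes, and on the log2(FPKM + 1) scale there were 2, Rps4x and Rpl5, beside 12.5%. DESeq2 and the exact test of edgeR called 0 members as well, against 2.98% and 2.99% of all genes. The lowest adjusted p of a member was 0.451, for Rps4x.

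The differences were small and leaned to one side. The log2 fold change of Ptpn6+/mev against wild-type was above 0 in 67 of the 83 tested members, and it was above 0 in 49.5% of all tested genes. Its median was 0.07 over the members and -0.0024 over all tested genes. Without Ptpn6+/mev replicate 2 the median over the members was 0.04, and without wild-type replicate 2 it was 0.03. It lay within 0.2 of 0 for 77 members. The median standard error of a member was 0.087, and that of all tested genes 0.154. The 95% interval of the fold change lay inside 0.5 log2 units, which is 1.41-fold, on either side of 0 in 76 of 83 members and in 45.9% of all tested genes. For most members the interval thus left out changes beyond that size.

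**Figure D2:**
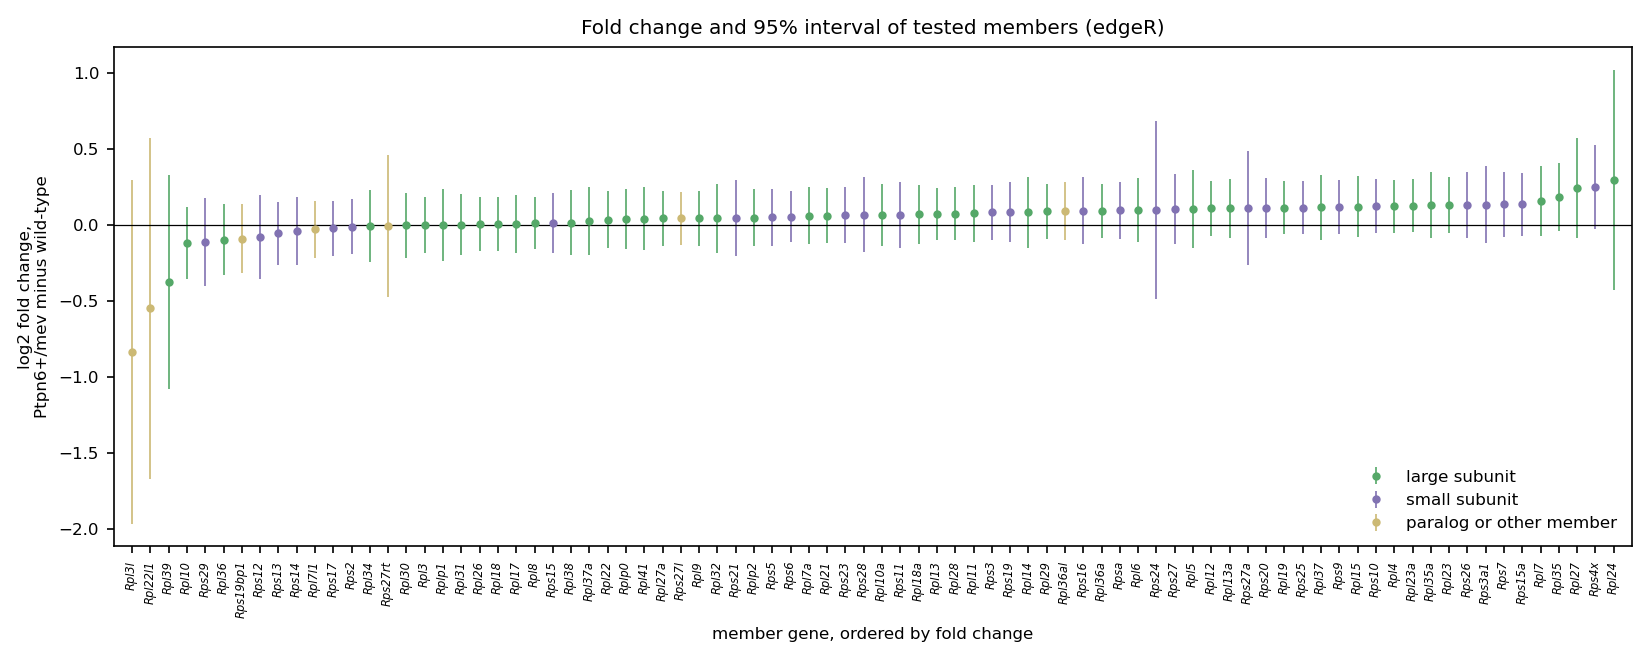
Log2 fold change of Ptpn6+/mev against wild-type with its 95% interval for 82 of the tested members, ordered by fold change and colored by subunit. The points run from -0.83 for Rpl3l to 0.30 for Rpl24, 66 of those drawn lie above 0, and every interval includes 0.

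Values per mouse gave the same picture on the FPKM scale. All 3 Ptpn6+/mev values lay above all 3 wild-type values in 31 of the 83 tested members, 37.3%, whereas 14% of all tested genes showed this order. The opposite order was found in 0 members and in 6.38% of all genes. FPKM values were not rescaled between libraries, and on the log2(FPKM + 1) scale the median difference was 0.06 over all tested genes and 0.14 over the members. The TMM factor was 0.929 in wild-type replicate 2 and 0.994 to 1.03 in the others, so scaling raises that library relative to its FPKM. Where the groups of a gene are said below not to overlap, this holds for unscaled FPKM. The order of the mice after scaling is not given here. When Ptpn6+/mev replicate 1 was left out, 56 members had all Ptpn6+/mev FPKM values above all wild-type values, beside 19.6% of all genes. Without Ptpn6+/mev replicate 2 or 3 there were 32 and 33 such members, beside 20.3% and 17.9% of all genes. Without wild-type replicate 1, 2 or 3 there were 46, 34 and 35, beside 19%, 21.1% and 23.3%. Of the 77 canonical members, 60 had their lowest value in wild-type replicate 2, a pattern found in 42.8% of all tested genes, and 48 had their highest value in Ptpn6+/mev replicate 2, where 17.5% of all tested genes had theirs.

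The members took 5.12%, 5.52% and 5.36% of all counts in Ptpn6+/mev replicates 1 to 3. In the wild-type replicates 1 to 3 they took 5.07%, 4.49% and 4.95%. The means were 5.33% ± 0.20 and 4.84% ± 0.31 (SD, n = 3 each), a difference of 0.49 percentage points with an exact permutation p of 0.1, two-sided, which is the smallest that 3 mice against 3 can give. The groups did not overlap, but the lowest Ptpn6+/mev value and the highest wild-type value were close. Without wild-type replicate 2 the difference was 0.32 percentage points with an exact permutation p of 0.2. With the 10 most abundant other genes taken out of the total, the groups overlapped, and the exact permutation p was 0.2. The share of the summed FPKM was 11.8% ± 0.35 in Ptpn6+/mev and 10.8% ± 0.79 in wild-type kidneys (SD, n = 3 each).

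**Figure D3:**
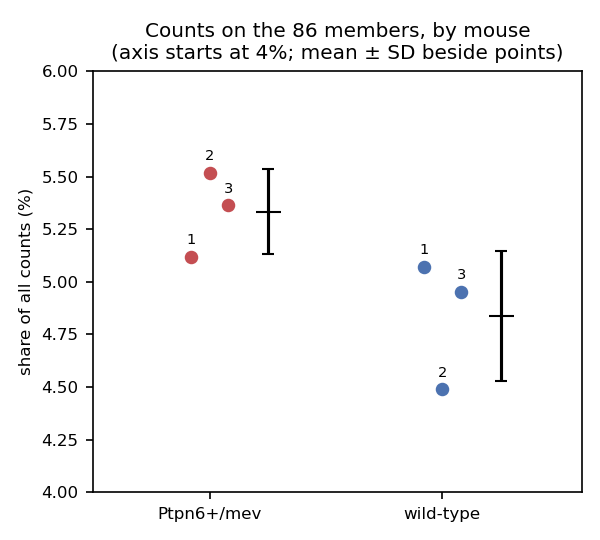
Share of all counts in a library that fell on the 86 members, in percent, for each mouse (points, numbered by replicate) with the group mean and SD beside them; the axis starts at 4%. Ptpn6+/mev mice lie between 5.12% and 5.52% and wild-type mice between 4.49% and 5.07%.

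Markers of other cell types were summed beside these shares. Those of dividing cells summed to 166 to 239 FPKM in Ptpn6+/mev and to 86.02 to 139 FPKM in wild-type kidneys, with no overlap, and 1 of the 9 markers was called. Endothelial markers summed to 252 to 263 FPKM in Ptpn6+/mev mice and to 283, 101 and 280 FPKM in wild-type replicates 1 to 3, so that only replicate 2, with the lowest share of the members, lay below the Ptpn6+/mev mice. Macrophage markers summed to 177, 282 and 281 FPKM in Ptpn6+/mev and to 255, 115 and 210 FPKM in wild-type mice, and the groups overlapped. The 12 proximal tubule markers summed to 3308 to 4075 FPKM in Ptpn6+/mev and to 2936 to 11741 FPKM in wild-type kidneys, with overlap. Without Kap, left out after its value was seen, the other 11 summed to 1118 to 1251 FPKM and to 1416 to 1546 FPKM, with no overlap. Over all 12 the median log2 fold change was -0.42 and 1 was called lower. Tubular injury, distal nephron and neutrophil sums overlapped between the groups. Lymphocyte markers summed to between 0.85 and 4.55 FPKM in every library, with 12 of the 13 in the table and none at 0 in all libraries. Red blood cell markers summed to 592 to 1636 FPKM in Ptpn6+/mev and 504 to 1300 FPKM in wild-type kidneys. Their part in the result was not tested. In bulk kidney, fewer cells of a type and less RNA per cell cannot be told apart.

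The P stalk of the large subunit is built from Rplp0, Rplp1, Rplp2 and the base protein Rpl12, and 0 of these 4 genes were called. Rplp0 was at 1597, 1804 and 1695 FPKM in Ptpn6+/mev and at 1694, 1405 and 1627 FPKM in wild-type mice. The estimated log2 fold change was 0.04 with a 95% interval of -0.16 to 0.24, and -0.0089 without wild-type replicate 2. Rplp1 was at 1991, 2361 and 2354 FPKM against 2318, 1838 and 2237 FPKM. The groups of both genes overlapped, and wild-type replicate 2 was the lowest of the 6 mice for all 4 proteins of the stalk.

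Rpl5 and Rpl11 travel with the 5S rRNA and, outside the ribosome, bind the p53 regulator Mdm2. Rpl5 was at 630, 614 and 606 FPKM in Ptpn6+/mev mice and at 546, 527 and 500 FPKM in wild-type mice. These groups did not overlap, and the log2 fold change after scaling was 0.11 (SE 0.11, adjusted p = 0.768, edgeR). Without wild-type replicate 2 it was 0.22 (SE 0.077, adjusted p = 0.18, edgeR). Leaving out each library in turn gave 0.022 to 0.22 for Rpl5. Rpl11 was at 1233, 1285 and 1240 FPKM against 1224, 1001 and 1167 FPKM, with a log2 fold change of 0.08 that came to 0.03 without wild-type replicate 2. The lowest Ptpn6+/mev value of Rpl11 stood just above the highest wild-type value.

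Among the 8 proteins listed for the exit tunnel of the large subunit, 7 had a log2 fold change above 0 and 0 were called. Of all tested genes, 49.5% were above 0. Rpl35, whose start carries a long tract, was at 612, 625 and 580 FPKM in Ptpn6+/mev and at 535, 427 and 562 FPKM in wild-type mice. The log2 fold change was 0.19 (SE 0.096, adjusted p = 0.487, edgeR), and 0.10 without wild-type replicate 2. All Ptpn6+/mev values were higher, and the difference was largest from wild-type replicate 2. Rpl39, a small protein of the tunnel wall, had an estimate below 0. It was at 112, 148 and 137 FPKM in Ptpn6+/mev mice and at 130, 244 and 110 FPKM in wild-type mice. The log2 fold change was -0.37 (SE 0.305, adjusted p = 0.697, edgeR), and without wild-type replicate 2 it was 0.10. The sign of the estimate depended on that mouse.

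Other large-subunit members were not called either. Rpl7, which lies near the 5S rRNA, was at 946, 1018 and 994 FPKM in Ptpn6+/mev mice and at 839, 889 and 839 FPKM in wild-type mice. The groups did not overlap, and the fold change was 0.16 on the log2 scale (adjusted p = 0.587, edgeR), or 0.25 without wild-type replicate 2 (adjusted p = 0.131, edgeR). Rpl10, which completes the maturing subunit, had -0.12, and Rpl36 had -0.09. With each library left out in turn, Rpl10 ran from -0.166 to -0.0203 and Rpl36 from -0.147 to -0.0198. Rpl24 had the highest estimate, 0.30, but rested on 14 to 22 counts per library. Its estimate ran from 0.115 to 0.415 with each library left out in turn. Rpl27 had 0.25 on its own row, 0.10 without wild-type replicate 2 and -0.09 when summed with Rpl27-ps3. For Rpl10 the sum with its copy gave 0.03, and for Rps12 it gave 0.21 (adjusted p = 0.425, edgeR), where the row of Rps12 alone gave -0.08, or -0.03 without wild-type replicate 2.

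In the small subunit 24 of 30 tested members had a log2 fold change above 0, beside 49.5% of all tested genes. Rps6, the substrate of S6 kinase downstream of mTORC1, was at 1249, 1309 and 1238 FPKM in Ptpn6+/mev mice. It was at 1175, 1132 and 1166 FPKM in wild-type mice. The groups did not overlap, and the log2 fold change was 0.06 with an interval of -0.11 to 0.23. With all 6 libraries, the 9 proteins listed along the mRNA path had a median of 0.07, and 0 were called. Rps29 had the lowest estimate of the subunit, -0.11, with overlapping groups at 276 to 351 FPKM and 260 to 346 FPKM, and without wild-type replicate 2 it had -0.20.

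Rps4x (GRCm38 chrX:102184941-102189394, minus strand), a protein of the small subunit, had the lowest p of all members. It was at 1139, 1347 and 1229 FPKM in Ptpn6+/mev mice and at 885, 1093 and 986 FPKM in wild-type mice. In FPKM, not rescaled between libraries, every Ptpn6+/mev value was above every wild-type value. The log2 fold change was 0.25 (SE 0.12, adjusted p = 0.451, edgeR), and 0.36 without wild-type replicate 2 (adjusted p = 0.0834, edgeR). With each library left out in turn it ran from 0.16 to 0.36.

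Rps24 departed most from the common proportion of the canonical members, by the SD of its departures over the 6 mice (0.49 log2 units). This protein, mutated in some patients with Diamond-Blackfan anemia, a failure of red cell production, was at 658, 962 and 722 FPKM in Ptpn6+/mev mice. It was at 476, 1073 and 519 FPKM in wild-type mice. Wild-type replicate 2 was the highest and the other 2 wild-type mice the lowest of all. The log2 fold change was 0.10 (SE 0.255, adjusted p = 0.923, edgeR). Without wild-type replicate 2 it was 0.48 (SE 0.118, adjusted p = 0.0781, edgeR). Of the 19 genes listed for Diamond-Blackfan anemia, 17 had a log2 fold change above 0 with all 6 libraries. This was so in 67 of the 83 tested members and in 49.5% of all tested genes. The median of the list was 0.11, and 0 were called. In 17 of the 19, wild-type replicate 2 had the lowest FPKM, as it had in 42.8% of all tested genes.

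Leaving out wild-type replicate 2 brought 6 members to an unadjusted p under 0.05, which 17.2% of all genes then reached. After Rps24 and Rps4x these were Rpl7 with 0.25, Rps3a1 with 0.25, Rps27a with 0.31 and Rpl5 with 0.22 on the log2 scale. With all libraries Rps27a had 0.11 (SE 0.162, adjusted p = 0.848, edgeR) with overlapping groups, and Rps3a1 had 0.14 (adjusted p = 0.687, edgeR). Over the omission of each library in turn, Rps27a ran from 0.0127 to 0.305 and Rps3a1 from 0.0716 to 0.252. Rps27a makes ubiquitin fused to a ribosomal protein. Rps3a1 was at 950, 1030 and 964 FPKM in Ptpn6+/mev mice and at 807, 939 and 796 FPKM in wild-type mice. None of the 6 passed an FDR of 0.05 in edgeR, the adjusted p running from 0.0781 to 0.18. The median over the members was 0.03 without this library, and 54 of 83 were above 0, beside 49.2% of all genes.

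How far the members kept a common proportion was described by the shift they shared in each library. Relative to the mean of each gene over the 6 mice, the shared shift on the log2 FPKM scale was 0.00, 0.12 and 0.09 in Ptpn6+/mev replicates 1 to 3. It was 0.01, -0.17 and -0.04 in the wild-type replicates 1 to 3. As FPKM values were not rescaled between libraries, this shift includes any difference that all genes of a library share. The TMM factor of wild-type replicate 2 was 0.929, and the shift of all tested genes in each library was not taken. The SD of the canonical members around that shift was 0.055 to 0.088 in Ptpn6+/mev mice and 0.103, 0.182 and 0.107 in wild-type mice. This order of the groups was not found by the median absolute deviation, which was 0.0495 in Ptpn6+/mev replicate 1 and 0.0382 and 0.0293 in wild-type replicates 1 and 3. Wild-type replicate 2 had both the lowest shift and the widest spread. The median coefficient of variation over the 6 mice was 8.76% for the canonical members and 15.3% for all tested genes.

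**Figure D4:**
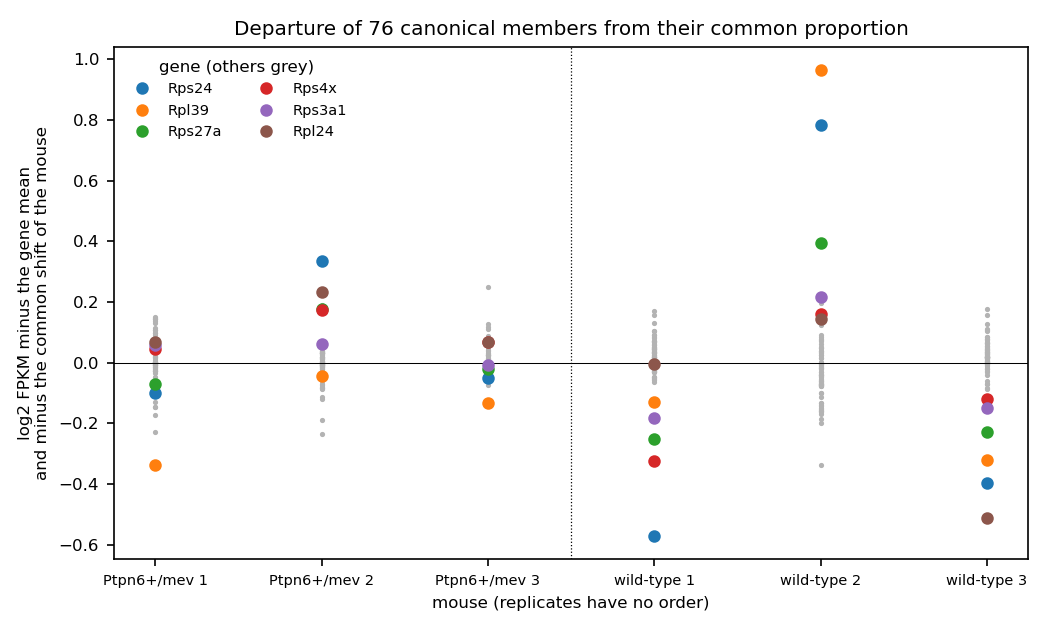
Log2 FPKM of 76 canonical members in each mouse, minus the mean of the gene and minus the shift shared by all members in that mouse. Most genes (grey) stay near 0, while Rpl39 stands at 0.96 and Rps24 at 0.78 in wild-type replicate 2, and Rps24 at -0.57 in wild-type replicate 1.

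The difference between the groups in the balance of the subunits was smaller than the spread between mice. The mean log2 FPKM of the large-subunit members minus that of the small-subunit members was 0.18 ± 0.02 in Ptpn6+/mev and 0.19 ± 0.04 in wild-type kidneys (SD, n = 3 each). The difference was -0.0066 with an exact permutation p of 1, two-sided. The level of this balance depended on how it was taken. By medians it was 0.00096 in Ptpn6+/mev and 0.06 in wild-type kidneys (difference -0.06, exact permutation p = 0.5), and over members with whole counts alone it was -0.05 and -0.03 (difference -0.02, exact permutation p = 0.5).

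Paralogs can replace their parent protein in some tissues, and 5 pairs could be compared within each mouse. Rpl22l1, a paralog of Rpl22, was at 1.21%, 1.31% and 1.28% of Rpl22 in Ptpn6+/mev mice. In wild-type mice it was at 0.848%, 3.91% and 1.32%. The range of the wild-type mice enclosed that of the Ptpn6+/mev mice, and the exact permutation p was 0.7 (adjusted 0.875 over 5 ratios). Rpl22l1 rested on 27 to 105 counts, and its log2 fold change of -0.55 became 0.24 without wild-type replicate 2.

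Rps27l, a p53-inducible paralog, was at 57.8%, 49.0% and 56.2% of Rps27 in Ptpn6+/mev mice and at 55.1%, 63.4% and 52.3% in wild-type mice (exact permutation p = 0.6, adjusted 0.875). Rpl36al was at 61.0% to 69.2% of Rpl36a over the 6 mice (exact permutation p = 1). Rpl7l1 was at 6.60%, 6.46% and 6.56% of Rpl7 in Ptpn6+/mev mice and at 7.77%, 6.34% and 7.91% in wild-type mice (exact permutation p = 0.4, adjusted 0.875). Wild-type replicate 2 lay below the Ptpn6+/mev values and the other 2 wild-type mice above them. Without that mouse the groups did not overlap, and the log2 ratio difference moved from -0.16 to -0.26 (exact permutation p = 0.1, unadjusted and the smallest that 3 against 2 can give). Rpl3l, a paralog of striated muscle, was at 0.076% to 0.333% of Rpl3 and rested on 8 to 30 counts (exact permutation p = 0.2, adjusted 0.875). Rps27rt, whose start region shares its last bases with that of Rps27, was at 71.2, 106 and 95.5 FPKM against 87.2, 63.9 and 110 FPKM. The counts of this copy and of Rps27 were fractional and added to whole numbers in every library, as when reads are divided between them. In Ptpn6+/mev replicate 1 they were 274.32 and 2518.68. The ratio of Rps27l to Rps27 rests on the divided row of Rps27, and the accuracy of the division was not tested. Rps19bp1 was at 47.5 to 56.3 FPKM in all 6 mice.

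Members with and without the pyrimidine tract, beginning within 20 bases of a listed start, were set side by side. Such a tract was found in 36.0% of all genes with a start window and need not open the mRNA. The split is therefore not one of TOP mRNAs against others. Of the canonical members with a start window, 39 had the tract, with a median of 794 FPKM and a median log2 fold change of 0.08 over 38 tested. The 18 without it had a median of 736 FPKM and a median log2 fold change of 0.09. Both fold-change medians used all 6 libraries, and without wild-type replicate 2 the median over all tested members was 0.03. These values come from the same 6 libraries and were not tested against each other.

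Other genes of translation were read beside the members, from lists chosen with earlier results of these data known. Rack1 and Fau, ribosomal components whose symbols fall outside the naming rule, had log2 fold changes of 0.07 and -0.15. Over 22 genes of translation and other genes known for TOP mRNAs, these included, the median was 0.05 and 0 were called. Of the 22, 17 were above 0, beside 49.5% of all tested genes. Tpt1, the translationally controlled tumor protein, was at 2081, 1954 and 1978 FPKM in Ptpn6+/mev mice and at 1660, 1675 and 1484 FPKM in wild-type mice. The groups did not overlap, and the log2 fold change was 0.25 (adjusted p = 0.331, edgeR). Vim, an intermediate filament gene with a TOP tract, had 0.49 (adjusted p = 0.644, edgeR) and was at 43.3 FPKM in wild-type replicate 2 against 142 to 166 FPKM in the other 5 mice. Without that library the estimate of Vim was 0.12. Eif3e, of the initiation factor eIF3, had -0.10 with all libraries and 0.24 without it. Rack1 had 0.05 without it.

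Of 69 tested genes of ribosome biogenesis, which make and fold rRNA in the nucleolus, 0 were called and the median log2 fold change was 0.02. Utp14a had 0.31 and Dkc1, the pseudouridine synthase, 0.25. Brix1 had -0.29 and Taf1a, of the RNA polymerase I initiation complex, -0.24. Without wild-type replicate 2 the estimate of Brix1 was 0.07 and the median of the list -0.0055.

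The mTORC1 and LARP1 list had 31 tested genes, a median of 0.07 and 0 calls, and without wild-type replicate 2 the median was -0.0049. Eif4ebp1, the translation repressor that mTORC1 phosphorylates, was at 90.9, 74.0 and 88.3 FPKM in Ptpn6+/mev mice and at 52.4, 63.8 and 63.8 FPKM in wild-type mice. All Ptpn6+/mev values were higher, with a log2 fold change of 0.42 (SE 0.126, adjusted p = 0.229, edgeR). Mycn had 0.46 at 1.46 to 2.87 FPKM. Mtor itself had -0.32 (adjusted p = 0.437, edgeR), or -0.20 without wild-type replicate 2, and Tbc1d7, of the TSC complex, -0.30. Larp1 had -0.05 and Myc, a transcriptional activator of ribosome genes, 0.13, and without that library they had -0.12 and 0.19.

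The mitochondrial ribosome is built from a separate set of nuclear genes. Over its 78 genes the median log2 fold change was -0.03 and 0 were called. Of the 78, 33 were above 0, beside 49.5% of all tested genes. Mrps16 was at 13.2, 17.7 and 17.7 FPKM in Ptpn6+/mev mice and at 22.0, 22.0 and 20.7 FPKM in wild-type mice. The groups did not overlap, and the log2 fold change was -0.49 (SE 0.134, adjusted p = 0.196, edgeR). Mrps30 had -0.35, and Mrpl33 and Mrpl35 had 0.21 each. Without wild-type replicate 2 the estimate of Mrps30 was 0.20, and the median of the list was 0.0046. On the log2(FPKM + 1) scale, where the median over all tested genes was 0.06, the median of the list was 0.06.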

How the data were processed

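Poly-A RNA of 6 kidneys, 3 per group, was analysed. Per the methods of the study, the authors trimmed the reads, aligned them with TopHat to GRCm38.p5 and evaluated expression with Cufflinks; the submitters' processing notes also name Bowtie2, RSEM and TopHat2 2.0.3.12. The authors deposited estimated counts and FPKM values per gene and library; the tool behind the counts is not given in the sources used here. RNA extraction is given as TRIzol in the methods and as a column kit in the labels. The columns headed HE were read as the heterozygous Ptpn6+/mev mice.

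Counts were rounded, and edgeR 4.0.16 (R 4.3.3) was run with TMM scaling (filterByExpr, quasi-likelihood F-test, Benjamini-Hochberg adjustment over 13036 genes), a procedure also run on simulated data. Values with 1 number per library were compared by exact permutation, two-sided (Python 3.11.15, scipy 1.17.1). Samples are separate mice. Depth was 10271590 to 12361745 counts, so a count of 0 allows up to 3 counts, or 0.243 to 0.292 CPM, for counting error only. Gene positions come from GENCODE M21, start windows from RefSeq. Replicates of a group differed by more than sampling noise (chi-square per degree of freedom 6.27 to 43.3).

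Members and lists were chosen with earlier results of these data known. Named were all paralogs, the 5 highest and the 5 lowest log2 fold changes, the 10 highest and the 3 lowest mean FPKM, the P stalk, the 5S particle, selected parents of paralogs, and the 2 highest and 2 lowest of each pathway list; some of the genes so chosen are not reported here. Rps24, Rps3a1, Kap and the -ps sums were chosen after their values were seen. Alternatives were DESeq2's size factors, upper quartile scaling, TMM without the members, DESeq2 1.42.0, edgeR's exact test, limma 3.58.1 on log2 FPKM with pseudocounts of 1 and 0.1, a blocked fit on the replicate number, a minimum of 10 counts per library or no filter, and each library left out.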

Additional observations from a re-analysis of the deposited data

How the results depend on the processing

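0 members passed an FDR of 0.05 under every scaling, test, filter and omission tried, and the median log2 fold change of the members stayed above 0, from 0.03 to 0.14. At an unadjusted p under 0.05 there were 2 members on the log2(FPKM + 1) scale, 1 with a pseudocount of 0.1 (11.8% of all genes), 1 with the replicate block, 6 without wild-type replicate 2 and 1, Rpl3l, without wild-type replicate 3 (14.1% of all genes), and 0 otherwise. Several single fold changes near 0 turned sign, with the cause not tested. On the log2(FPKM + 1) scale Rpl7l1 was at 0.0433, Rps14 at 0.0258, Rps2 at 0.0587 and Rps27rt at 0.0764, and with a pseudocount of 0.1 at 0.0439, 0.0258, 0.0588 and 0.0773. Upper quartile scaling gave 0.00928 for Rps27rt. Summed with their -ps rows, which adds the counts of the copy, Rpl10 was at 0.0275, Rpl27 at -0.0871 and Rps12 at 0.212. Measured by the median absolute deviation, the spread among members in the libraries of Ptpn6+/mev mice came to 0.0495, 0.0332 and 0.0234, and that of wild-type mice to 0.0382, 0.0639 and 0.0293, and wild-type replicate 2 remained the widest.

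Leaving out each library in turn gave log2 fold changes of -0.00529 to 0.0725 for Rpl22, -0.897 to 0.24 for Rpl22l1, -0.0281 to 0.0362 for Rpl26, -0.607 to 0.104 for Rpl39, -0.00887 to 0.0821 for Rplp0, -0.0679 to 0.0793 for Rplp1, -0.0949 to 0.0427 for Rps14, -0.0423 to 0.062 for Rps15, -0.0458 to 0.0385 for Rps2, -0.077 to 0.477 for Rps24 and -0.16 to 0.179 for Rps27rt. Rpl22l1 and Rpl39 changed sign only without wild-type replicate 2. The same omissions gave 0.104 to 0.251 for Rpl7, 0.0305 to 0.0766 for Rps6 and -0.226 to -0.047 for Rps29. For Rps12 they gave -0.162 to -0.0327, and for Rpl3l -1.29 to -0.564. The log2 ratio differences ran from -0.84 (without wild-type replicate 1, exact permutation p = 0.1) to 0.262 for Rpl22l1 to Rpl22, from -0.263 to -0.102 for Rpl7l1 to Rpl7, from -1.26 to -0.509 for Rpl3l to Rpl3, from -0.125 to 0.0134 for Rps27l to Rps27 and from -0.0388 to 0.0524 for Rpl36al to Rpl36a. The median of the mitochondrial list ran from -0.0485 to 0.00529, above 0 without Ptpn6+/mev replicate 3 and without wild-type replicate 2, and was 0.0629 and 0.065 on the log2 FPKM scales with pseudocounts of 1 and 0.1. That of ribosome biogenesis ran from -0.00554 to 0.0444, below 0 without wild-type replicate 2 and at -0.00331 without Ptpn6+/mev replicate 2, and was 0.0982 and 0.104 on those scales. That of the genes of translation and other TOP mRNAs ran from 0.0331, without Ptpn6+/mev replicate 2, to 0.0693, and was 0.125 and 0.126 on those scales. That of mTORC1 and LARP1 ran from -0.00487, without wild-type replicate 2, to 0.113, and was 0.119 and 0.128 on those scales. The subunit difference ran from -0.0261 to 0.0145. In FPKM not rescaled between libraries, 32 to 56 members had groups apart, beside 17.9% to 23.3% of all tested genes with Ptpn6+/mev above wild-type.

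The replicate numbers did not pair the mice: deviations of same-numbered libraries correlated at -0.144, -0.184 and -0.13. With the replicate block, 0 members were called, the median was 0.07, and Rps27rt was at 0.00362. The share of counts had a paired exact permutation p of 0.25. Depth limits mainly Rpl24, Rpl3l, Rps18, Rpl39l and Rpl10l, which had few counts or none.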
